A study of Homo sapiens with 6 samples.

Results

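Keratins are the intermediate filament proteins of epithelial cells, and vimentin is that of mesenchymal cells. The genes described are 7 keratins of simple epithelia and carcinomas, KRT7, KRT8, KRT18, KRT19, KRT20, KRT23 and KRT80, together with VIM, which encodes vimentin. They were chosen by name, as every probe that the array annotation gives to these 8 genes. That came to 12 of the 47319 probes on the array, and to 8 of the 20046 genes with a named probe. Expression had been measured on Illumina bead arrays in HCT116, an established human colorectal carcinoma line. The cells had received 10 µM TIC10, a small-molecule compound later named ONC201, or 0.05% DMSO, its solvent, in fresh complete medium. They were harvested 48 h later, with 3 arrays for TIC10 and 3 for DMSO. No label ties the replicates to separate cultures, and the spread that the p-values measure may therefore be technical.

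Keratin filaments are obligate heteropolymers, built from pairs of an acidic type I chain and a basic type II chain. KRT18, KRT19, KRT20 and KRT23 are type I chains, and KRT7, KRT8 and KRT80 are type II chains. KRT8 with KRT18 or KRT19 forms the network of simple epithelia, KRT20 marks differentiated cells of the intestine, and KRT7 is the simple type II keratin of glandular ducts. Vimentin is a type III protein that assembles with itself, and carcinoma cells often gain it as they lose epithelial traits.

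In TIC10-treated cells KRT80 was 3.41-fold higher and KRT19 1.31-fold higher, while VIM was lower by 0.48 on the log2 scale. These were the 3 members that passed the test (limma on quantile-normalized log2 intensities, Benjamini-Hochberg adjusted p under 0.05 over 14534 genes). KRT7, KRT8, KRT18 and KRT20 did not pass, and KRT23 was too dim to be tested. In the same test 23.8% of all genes passed, 10.4% as higher and 13.4% as lower. The authors' processed values in the series matrix passed none of the members (limma, 0 of 7), where 6.7% of all genes passed. At an unadjusted p under 0.05 (limma) there were 3 of the 7 members there, and 2829 of all 14534 genes.

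The 1 changed member whose upstream region is in the RefSeq promoter table is VIM. It is shown because both of its probes were lower in the intensities. The region is the 250 bases before the start that RefSeq gives for the gene, chr10:17227991-17228240 on the plus strand of GRCh38.p14, with the letters of a GC box (GGGCGG) in capitals:
VIM: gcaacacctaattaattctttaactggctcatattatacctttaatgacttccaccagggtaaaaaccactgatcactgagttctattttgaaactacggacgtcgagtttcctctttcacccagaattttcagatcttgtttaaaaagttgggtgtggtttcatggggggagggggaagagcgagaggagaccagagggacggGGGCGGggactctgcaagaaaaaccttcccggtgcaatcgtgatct
This GC box, a binding sequence of the SP1 family, began 46 bases before the start. The table held such a region for 3 of the 8 members, VIM, KRT8 and KRT20. The span that RefSeq gives KRT8 (chr12:52897191-52949860) overlaps that of KRT18 (chr12:52948855-52952906). Whether the region read for KRT8 lies before its main transcript was not tested. The same was not tested for VIM or KRT20. The GC box letters, read on both strands, were in 42.6% of 35116 such regions and were not found for KRT8 or KRT20. The letters of a CAAT box (CCAAT) were in 32% of all regions and once in that of KRT20, 79 bases before the start. The letters of a TATA box (TATAAA), in 10.7% of all regions, and of an AP-1 site (TGANTCA), in 6.57%, were in none of these 3.

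Several facts of the arrays bear on the values that follow. Probes were tested if 3 or more arrays placed them above percentile 40, and 10 of the 12 member probes met this. KRT8, KRT18, KRT19, KRT80 and VIM had a probe above that level on all 6 arrays. KRT20 passed through its 3 DMSO arrays alone, and KRT7 through its 3 TIC10 arrays and 1 DMSO array, so that counts over the tested members do not stand for all 8. Median intensities were 42.6 to 43.6 in the TIC10 group and 46 to 49.6 in the DMSO group, and the brightest array was DMSO replicate 3 (mean intensity 404). On that array 508 genes lay over 1 log2 unit from the mean of the other 2 DMSO arrays, against 0 to 5 genes on the TIC10 arrays and 49 and 80 on the other DMSO arrays. The epithelial markers EPCAM (a mean intensity of 6931 for its brightest probe) and CDH1 (1140.5) were bright. VIL1 (33.7) and LGALS4 (38.6), both of differentiated gut epithelium, were too dim to be tested. The 12 fibroblast probes had summed intensities of 451 to 479 with TIC10 and 508 to 543 with DMSO, with THY1 and PDGFRB too dim. The 13 leukocyte probes had sums of 1529.7 to 1702 with TIC10 and 1069 to 1235 with DMSO. CD68, a lysosomal protein of macrophages, was the brightest of them and CD3E was too dim. The part of these markers in the results was not tested.

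**Figure D1:**
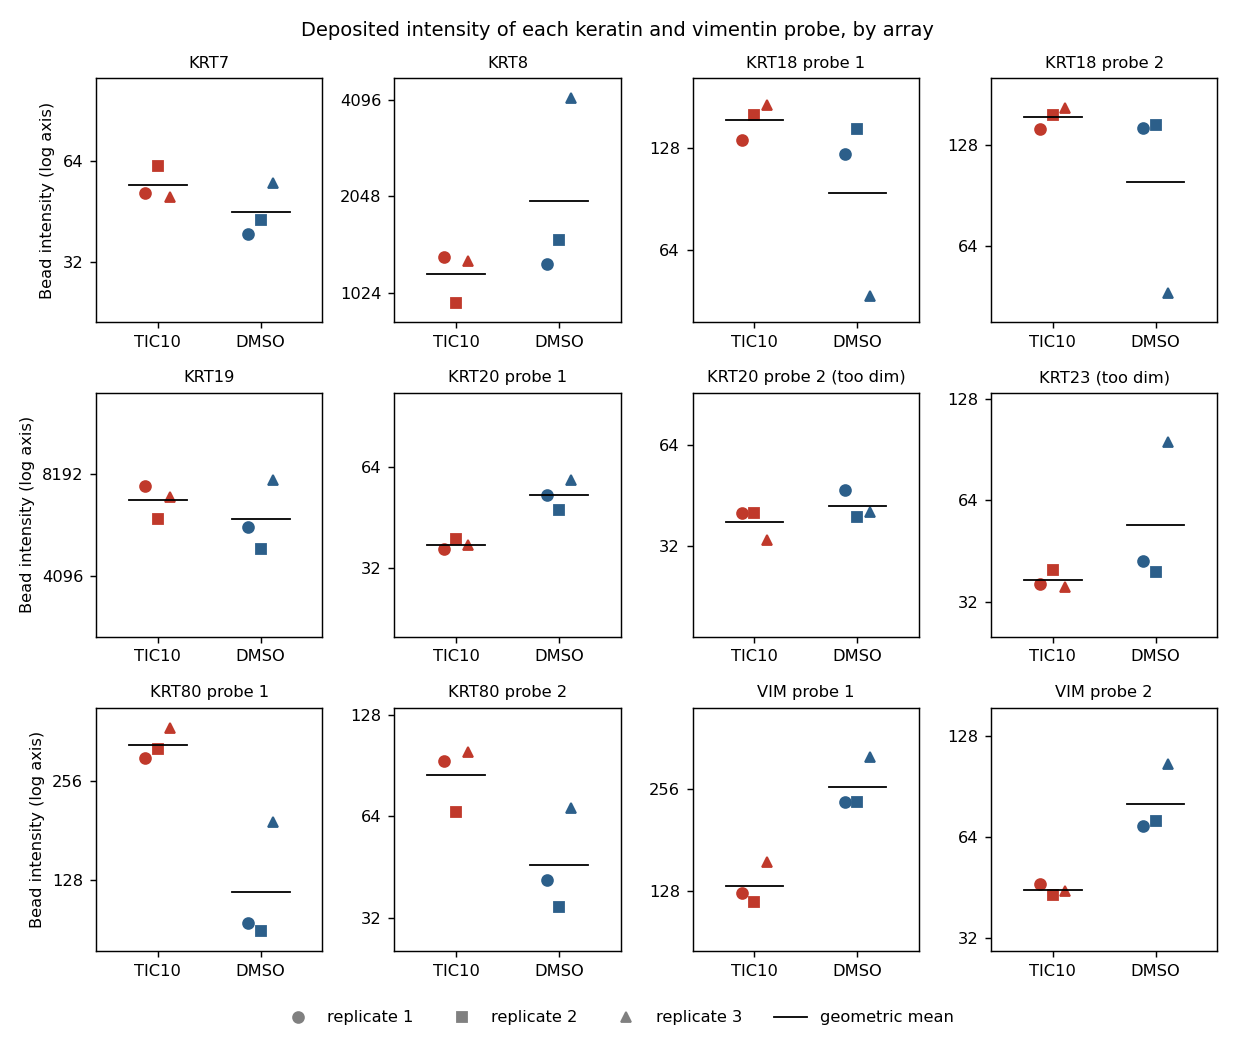
Deposited bead intensity (log axis, base 2) of each of the 12 probes, with TIC10 arrays in red and DMSO arrays in blue, a symbol for each replicate number and a line at the geometric mean. KRT80 probe 1 lies above and both VIM probes lie below all DMSO arrays, and DMSO replicate 3 is high for KRT8 (4150.2) and low for both KRT18 probes (46.8 and 46.6).

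Among the type II keratins, KRT80 was the member that differed most. KRT80 is a type II keratin described in differentiating epithelia. Its brighter probe read 300.1, 322 and 373 on TIC10 arrays and 94.7, 89.1 and 192 on DMSO arrays. The groups did not overlap before or after normalization, and the highest DMSO array was again DMSO replicate 3. On the normalized log2 scale KRT80 averaged 8.74 ± 0.05 with TIC10 and 6.97 ± 0.27 with DMSO (SD, n = 3 each), a change of 1.77 ± 0.14 (SE; limma adjusted p = 0.000488). Of 14534 genes it ranked 107 by the size of its change. The second probe read 93.7, 66.2 and 99.4 on TIC10 arrays and 41.4, 34.5 and 67.6 on DMSO arrays. There the raw intensities overlapped, since DMSO replicate 3 lay above TIC10 replicate 2. Tested among 29441 probes, the second probe differed by 0.88 ± 0.17 on the log2 scale (limma adjusted p = 0.0163), where 18% of all probes passed. This probe met the filter through its 3 TIC10 arrays, the group where it is high, and 1 DMSO array, so its value is a description and no support for the brighter probe.

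KRT80 in the series matrix kept its direction with its brighter probe only, and it did not pass. There the values of the brighter probe were 0.02, -0.11 and 0.00 for TIC10 and -0.51, -0.29 and -0.25 for DMSO. The groups did not overlap, and the change was 0.32 ± 0.11 (limma adjusted p = 0.118; 5.49e-06 to 0.118 over 16 alternatives). The second probe differed by -0.04 ± 0.12 (adjusted p = 0.959 over all probes, where 4.53% of probes passed in the series matrix).

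KRT8, the type II chain of simple epithelia, did not pass. It read 1325, 954 and 1285 on TIC10 arrays and 1256, 1498 and 4150.2 on DMSO arrays. All arrays but DMSO replicate 3 lay between 954 and 1498, and the groups overlapped. On the normalized scale KRT8 averaged 10.54 ± 0.24 with TIC10 and 10.76 ± 0.55 with DMSO (SD, n = 3 each). The difference was -0.22 ± 0.28 (adjusted p = 0.631), with a 95% interval of -0.88 to 0.44. Without DMSO replicate 3 its sign turned, to 0.07 (adjusted p = 0.824), and in the series matrix it was 0.05 (adjusted p = 0.902; 0.206 to 0.902 over 16 alternatives). KRT8 has many processed pseudogenes in the human genome, and whether its single probe also binds their transcripts was not tested.

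KRT7 was dim and did not pass. It read 51.4, 61.6 and 49.95 on TIC10 arrays and 38.6, 42.7 and 54.8 on DMSO arrays. These raw values overlapped through DMSO replicate 3, and after normalization all 3 TIC10 arrays lay above the DMSO arrays. The change was 0.33 ± 0.11 (adjusted p = 0.0732), with a 95% interval of 0.07 to 0.60. Without DMSO replicate 3 KRT7 passed (0.37, adjusted p = 0.0197; 0.0197 to 0.620 over 15 alternatives). That array was its only DMSO array above the filter level. In the fit without it KRT7 was thus tested through the group where it is high, and that call is a description.

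KRT19, the smallest keratin, without a tail domain, was the brightest type I member and rose slightly. It read 7594, 6045 and 7031 on TIC10 arrays and 5711, 4912 and 7859 on DMSO arrays. The raw values overlapped because DMSO replicate 3 was the highest of all, and after normalization the groups did not overlap. On that scale KRT19 averaged 12.84 ± 0.16 with TIC10 and 12.45 ± 0.04 with DMSO (SD, n = 3 each), a change of 0.39 ± 0.10 (adjusted p = 0.0286). Its probe lay between percentiles 99.0 and 99.4 on every array. The call was lost without TIC10 replicate 1 (adjusted p = 0.0886), TIC10 replicate 3 (0.0694), DMSO replicate 1 (0.0563) or DMSO replicate 2 (0.0936). Scaling all arrays to one median also ended it (0.24, adjusted p = 0.430), and there the median change of all genes was -0.15 and KRT19 lay 0.40 above it. In the series matrix KRT19 was 0.04, 0.11 and 0.09 for TIC10, all above the DMSO values of -0.30, -0.07 and -0.11. That difference of 0.24 ± 0.11 missed the threshold (adjusted p = 0.251; 0.0199 to 0.430 over 16 alternatives).

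KRT18, the partner of KRT8, turned on a single array. Its brighter probe read 143, 157 and 165 on TIC10 arrays and 144, 146 and 46.6 on DMSO arrays. The other probe read 136, 161 and 173 on TIC10 arrays and 123, 146 and 46.8 on DMSO arrays. Both probes were thus low on DMSO replicate 3, at percentiles 42.7 and 43.3 of that array, and at 75.6 to 82.0 on every other array. The change of KRT18 was 0.77 ± 0.36 (adjusted p = 0.175), with a 95% interval of -0.08 to 1.63. Without DMSO replicate 3 it was 0.31, and passed (adjusted p = 0.0285; 0.0285 to 0.360 over 15 alternatives). In the series matrix the brighter probe was 0.15, 0.00 and 0.20 for TIC10 and -0.19, -0.09 and -0.10 for DMSO, so that replicate 3 did not stand out, and the change was 0.24 ± 0.11 (adjusted p = 0.231).

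KRT8 and KRT18 moved in opposite directions on DMSO replicate 3. KRT8 lay 0.87 above the mean of the other 2 DMSO arrays on the log2 scale, and KRT18 lay below it (difference -1.35). By size these departures were at percentiles 94.7 and 98.8 of the departures of all genes on that array. VIM (-0.16) and KRT19 (-0.03) departed little there, and KRT80 lay 0.47 above. In the series matrix the same departures for replicate 3 were 0.01 for KRT8 and 0.04 for KRT18.

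**Figure D2:**
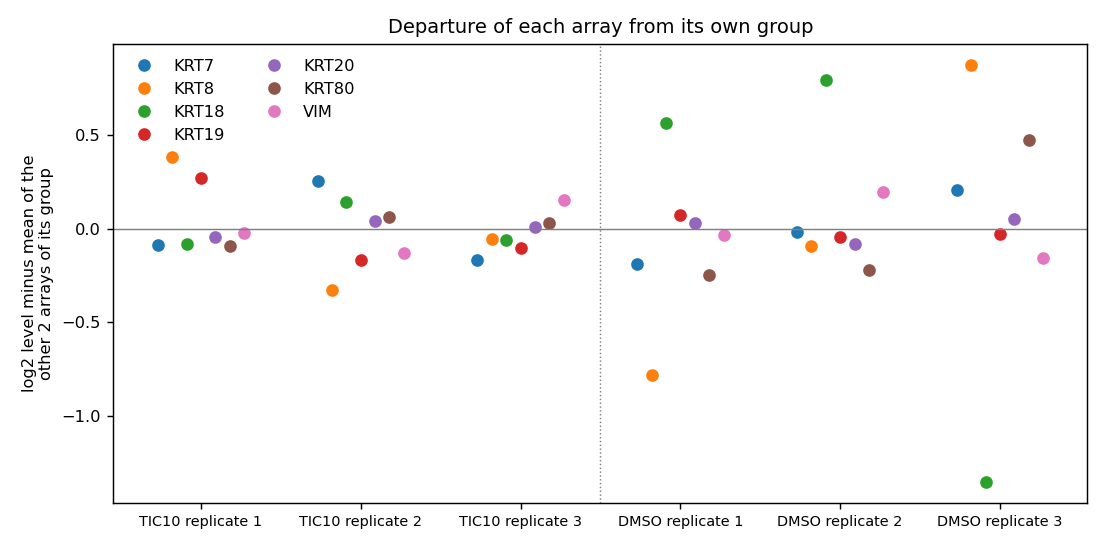
Normalized log2 level of each tested member on each array minus the mean of the other 2 arrays of its group, with TIC10 arrays on the left and DMSO arrays on the right. KRT8 (0.87) and KRT18 (-1.35) depart in opposite directions on DMSO replicate 3.

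The 2 tables could not be matched array by array. Over 6988 brighter genes, the bead arrays correlated with the matrix columns of their own treatment (r = 0.12 to 0.64 across genes, which are not independent replicates) and negatively with those of the other treatment (-0.59 to -0.10). However, 0 of 6 arrays correlated best with the matrix column of their own replicate number. The number of a replicate in one table therefore need not name the same array in the other.

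KRT20, the type I keratin of the differentiated intestine, and KRT23, another type I keratin, were at the lower end of the signal. The probe of KRT20 that was tested read 36.5, 39.1 and 37.4 on TIC10 arrays and 52.8, 47.7 and 58.4 on DMSO arrays. The groups did not overlap, and each TIC10 value lay below percentile 40 of its array. The difference of KRT20 was -0.23 ± 0.07 (adjusted p = 0.0612), with a 95% interval of -0.39 to -0.06. It passed without a filter on dim probes (adjusted p = 0.0378), with the mean of a gene's kept probes (0.0461) and with an intensity trend in the variance model (0.0118; 0.0118 to 0.952 over 15 alternatives). Where the filter was used, KRT20 met it through its 3 DMSO arrays alone, the group where it is high. These values are therefore a description and no support for a change of KRT20. The second KRT20 probe read 40.1, 40.2 and 33.4 on TIC10 arrays and 47.2, 39.1 and 40.5 on DMSO arrays. Those groups overlapped, and the difference without the filter was -0.03 ± 0.07 (adjusted p = 0.907). KRT23 read 36.2, 39.8 and 35.3 on TIC10 arrays and 42.3, 39.2 and 95.2 on DMSO arrays. It lay above percentile 40 on DMSO replicate 3 only, and without the filter it differed by -0.24 ± 0.18 (adjusted p = 0.561).

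VIM was lower with TIC10 in the bead intensities at both probes. The brighter probe read 126, 118 and 156 on TIC10 arrays and 235, 235 and 320 on DMSO arrays. All TIC10 values lay below all DMSO values, and again DMSO replicate 3 was the highest in intensity. On the normalized scale VIM averaged 7.49 ± 0.09 with TIC10 and 7.97 ± 0.12 with DMSO (SD, n = 3 each), a change of -0.48 ± 0.09 (adjusted p = 0.0124). The dimmer probe read 46.4, 43.0 and 44.1 on TIC10 arrays and 69.1, 71.3 and 105.6 on DMSO arrays. It changed by -0.45 ± 0.08 (limma over all probes, adjusted p = 0.0121), also without overlap. The call of VIM was lost without TIC10 replicate 1 (-0.48, adjusted p = 0.0556). Scaling all arrays to one median gave -0.80 (adjusted p = 0.0211), or -0.65 relative to the median of all genes. In a bulk extract, less VIM RNA per cell and fewer cells that express it cannot be told apart.

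The series matrix did not show VIM lower. Its brighter probe was -0.03, 0.03 and 0.10 for TIC10 and -0.34, -0.08 and 0.21 for DMSO, which overlap, with a difference of 0.10 ± 0.14 (adjusted p = 0.783; 0.00321 to 0.783 over 16 alternatives). The dimmer probe was 0.28, 0.25 and 0.12 for TIC10 and -0.23, -0.09 and 0.00 for DMSO. There all TIC10 values lay above the DMSO values, and the difference of 0.32 ± 0.12 did not pass (adjusted p = 0.140 over all probes). The direction of VIM therefore turned between the 2 tables.

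**Figure D3:**
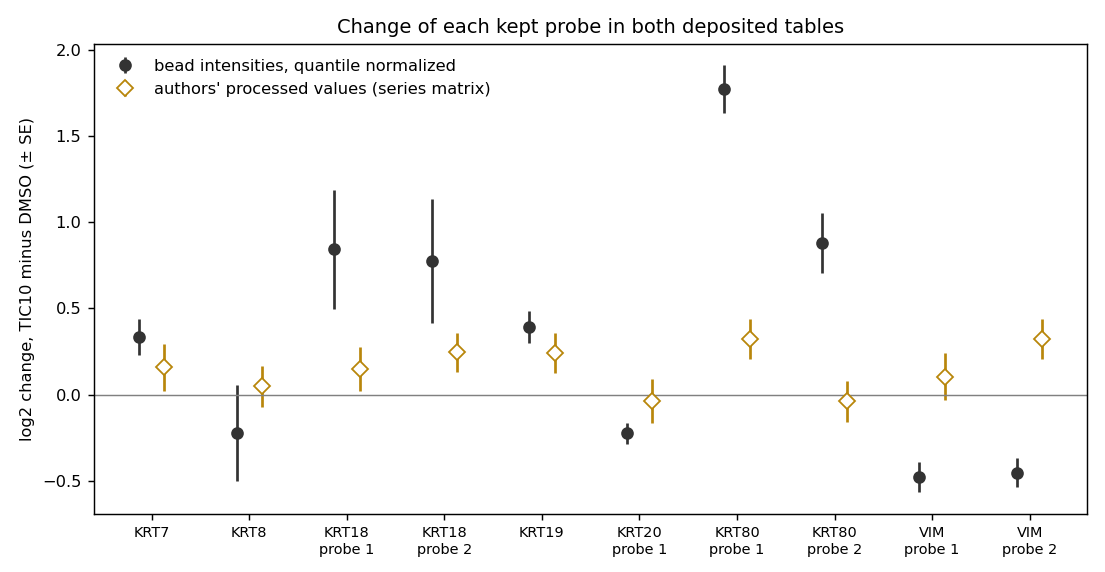
Log2 change (TIC10 minus DMSO, ± SE of the limma fit) of each of the 10 tested probes, with filled circles for the normalized bead intensities and open diamonds for the series matrix. KRT80 has the largest change in the intensities (1.77) and 0.32 in the matrix, and both VIM probes are below 0 in the intensities and above 0 in the matrix.

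Counted over the tested members, 6 of 7 had groups that did not overlap after normalization, where 41.6% of all genes did. These 6 include KRT20 and KRT7, which met the filter only or mainly through the group where they are high. Their lack of overlap is therefore no result about the members. The members above the filter on all 6 arrays were 5, of which KRT80 and KRT19 were higher, VIM was lower, and KRT8 and KRT18 did not pass. Of those 5, only KRT8 had groups that overlapped after normalization. Without DMSO replicate 3, 5 of 7 members passed, with KRT7, KRT18, KRT19 and KRT80 higher and VIM lower, and 5126 of all 14534 genes passed in that fit. KRT7 was in that fit through its TIC10 arrays alone, the group where it is high, so its call adds no support to the count. Without TIC10 replicate 1 only KRT80 passed among the members, and 2068 of all genes did. The count over all genes, 3463 with every array, thus moved in the same direction as that of the members. The split of all called genes depended on scaling, with 1513 higher and 1950 lower here, and 315 higher and 1996 lower with arrays set to one median.

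**Figure D4:**
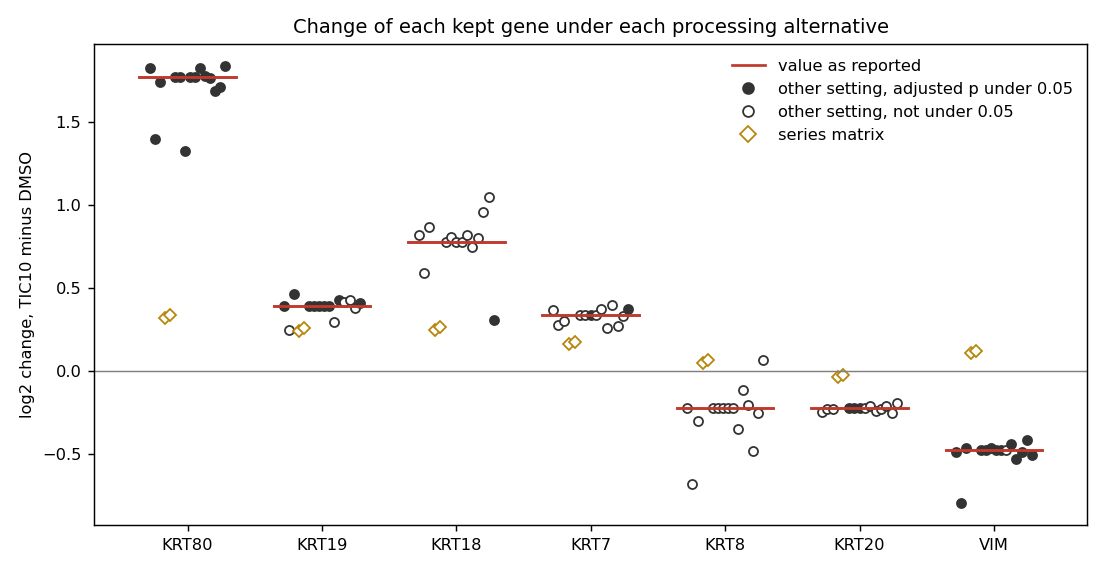
Log2 change (TIC10 minus DMSO) of the 7 tested members as reported (red line) and under each alternative, filled where the adjusted p was under 0.05, with diamonds for the series matrix. KRT80 is at 1.33 to 1.84 in the alternatives on the intensities, and VIM is above 0 in the series matrix only.

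The other keratin genes were mostly too dim to be tested. Of 42 on the array, 14 were tested, and 2 passed as higher and 1 as lower (median change 0.06). That was 21.4% of those tested, near the 23.8% of all genes that passed. KRT15, a type I keratin of basal cells, read 247, 252 and 278 on TIC10 arrays and 114, 125 and 175 on DMSO arrays, without overlap. It changed by 1.25 ± 0.09 (adjusted p = 0.000350), and in the series matrix by 0.55 ± 0.11 (adjusted p = 0.00734). KRT34, a hair keratin, changed by 0.78 ± 0.11 and KRT222 by -0.81 ± 0.11 (adjusted p = 0.00385 and 0.00283). Neither passed in the series matrix, with values of 0.01 for KRT34 and 0.10 for KRT222, whose direction turned. The 1 tested keratin pseudogene, KRT16P2, differed by 0.31 ± 0.10 (adjusted p = 0.0671).

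A wider list of cytoskeletal linker and junction genes, called linkers here, included PLEC, which encodes plectin. It was not limited to proteins that anchor keratin filaments to the cell border. Of 16 tested linkers 4 passed as higher and 0 as lower (6 at an unadjusted p under 0.05, as had 5239 of all 14534 genes). That was 25% of them, near the 23.8% of all genes that passed. The median change of the linkers was 0.10, against -0.01 over all genes. PLEC changed by 2.11 ± 0.16 (adjusted p = 0.000434; series matrix 1.10, adjusted p = 0.00786), periplakin (PPL) by 0.47 ± 0.10, the spectraplakin MACF1 by 0.48 ± 0.09 and the desmosome protein PKP2 by 0.37 ± 0.08. PPL also passed in the series matrix (0.44, adjusted p = 0.0289), MACF1 did not (0.25, 0.248), and the direction of PKP2 turned (-0.06, 0.853). The count of linkers was 1 higher without TIC10 replicate 1, 2 without TIC10 replicate 3 or DMSO replicate 1, and 5 higher with 3 lower without DMSO replicate 3. After scaling to one median 1 linker was higher and 3 were lower. Among other genes of the intermediate filament family 3 of 9 were higher and 2 lower (55.6% called, against 23.8% of all genes). IFFO1 changed by 2.23 ± 0.13 and IFFO2 by 0.97 ± 0.19, PRPH, the peripherin of neurons, by 0.59 ± 0.12, and SYNM, the synemin that copolymerizes with vimentin, by -0.78 ± 0.09. IFFO1 (1.12, adjusted p = 2.16e-05) and PRPH (1.06, 0.00103) also passed in the series matrix, while IFFO2 (0.12, 0.726) and SYNM (-0.18, 0.445) did not. Without TIC10 replicate 1, or with arrays scaled to one median, 1 was higher and 1 lower, and without TIC10 replicate 2, 2 were higher and 1 lower.

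Genes that set epithelial or mesenchymal identity gave different counts in the 2 tables. Of 19 tested epithelial genes 3 were higher and 3 lower in the intensities (31.6% called, against 23.8% of all genes). In the series matrix 3 were higher and 0 lower, and after scaling to one median 1 was higher and 4 lower. The genes called differed between the tables. CLDN7 (0.95, limma adjusted p = 0.000204) and MAL2 (0.46, 0.0437) passed in the series matrix but not in the intensities (0.44, 0.240 and 0.22, 0.105). OVOL2, a repressor of mesenchymal genes, changed by -1.23 ± 0.10, ELF3 by -0.76 ± 0.09, the splicing factor ESRP1 by 1.08 ± 0.19 and KLF5 by 0.93 ± 0.22. Of these, ESRP1 passed in the series matrix (0.70, adjusted p = 0.00164), while OVOL2 (-0.30, adjusted p = 0.133), KLF5 (0.33, 0.542) and ELF3 (0.02, 0.963) did not. Without DMSO replicate 3, 4 were higher and 7 lower, and 1 was higher without TIC10 replicate 1 or DMSO replicate 1. Of 5 tested transcription factors of the epithelial-mesenchymal switch 2 were higher and 0 lower (2 at an unadjusted p under 0.05, as had 5239 of all 14534 genes). That was 40% of a list of 5, where 23.8% of all genes passed, 10.4% as higher. SNAI2 changed by 0.77 ± 0.14 and FOXC2 by 0.34 ± 0.09, and 1 passed without any one array other than DMSO replicate 3. In the series matrix 0 of these 5 passed (limma, 0 at an unadjusted p under 0.05), with SNAI2 at 0.07 (adjusted p = 0.837) and FOXC2 at 0.09 (0.759). Of 13 mesenchymal genes 1 was higher, the receptor AXL (1.36 ± 0.11), and 2 were lower, FSTL1 (-0.69 ± 0.11) and the galectin LGALS1 (-0.48 ± 0.11). These calls were 23.1% of that list, near the share over all genes (23.8%). AXL also passed in the series matrix (0.71, adjusted p = 0.00394), FSTL1 was at -0.11 (0.680), and LGALS1 was at 0.14 (0.636), so that its direction turned. Without DMSO replicate 3, 2 were higher and 3 lower. Of 9 tested genes of the differentiated gut 1 was lower, the carbonic anhydrase CA2 (-1.41 ± 0.12; series matrix -1.10, adjusted p = 0.000123), and 2 without DMSO replicate 3. The call of CA2 was 11.1% of that list, against 23.8% of all genes. Among the 6 tested markers of a colorectal line 0 passed (limma, 0 at an unadjusted p under 0.05), with CDX2 at -0.30 ± 0.13, and 1 was higher and 2 lower without DMSO replicate 3. Of 4 tested fibroblast markers 0 passed (0 at an unadjusted p under 0.05), with COL1A1 at -0.10 ± 0.08 and COL1A2 at -0.06 ± 0.10, and of 5 leukocyte markers 1 was higher, CD68 (1.80 ± 0.26; series matrix 0.64, adjusted p = 0.00608). The call of CD68 was 20% of the leukocyte list, near the 23.8% of all genes.

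By likeness over the 6 arrays (Pearson r of normalized log2 values among 14534 genes, given as a description), KRT80 ran most like MIR330 (0.999), TMLHE (0.998) and MTHFD2 (0.997). KRT19 ran most like MAPKBP1 (0.996), SMCO2 (0.991) and MYO1D (0.990), and VIM most like CXXC4, ZNF816 (0.993 each) and SUZ12 (0.990). KRT8 ran most like LMF2 (1.00), TLE5 (0.997) and DOT1L (0.991), and KRT18 most like ANGPTL4 (0.997), MT2A and TSPAN5 (0.996 each). KRT7 ran most like BCAR4 (0.996), RD3 (0.993) and RRP8 (0.990), and KRT20 most like NDUFA8 (0.997), MAMDC2 and SHQ1 (0.995 each). With 6 arrays in 2 groups, such values share the treatment and, for KRT8 and KRT18, DMSO replicate 3.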

How the data were processed

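Total RNA was labelled as biotinylated cRNA and hybridized to Illumina arrays, per the labels' protocols. The deposited bead table held intensity values for 47319 probes, which the authors' file name calls non-normalized, without detection p-values. Values in the deposited series matrix lie around 0 for each probe and were read as log2. The sources used here do not give their base, scaling or centring. Bead columns named Control were assigned to DMSO, the only group without TIC10, and to replicates by number.

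With R 4.3.3 and limma 3.58.1, intensities were background-corrected (normexp, offset 50), quantile normalized and taken to log2. Probes above percentile 40 on at least 3 arrays were kept (29441). Genes were named from the array annotation, with current symbols from RefSeq GRCh38.p14, and the brightest kept probe stood for a gene. TIC10 and DMSO were compared by limma (lmFit and eBayes, two-sided, Benjamini-Hochberg over all genes), with 95% intervals from the fit. Intensities have no depth, and the 3 arrays per group limit precision. An exact permutation test could not go below p = 0.1. Only the limma fit was tested on simulated data, drawn as normalized log2 values of the tested genes.

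The members and gene lists were chosen with earlier results of these data known. All members, changed keratins, up to 4 changed genes of each other list (or the 2 of smallest p) and the 3 genes most like each tested member are named. CLDN7 and MAL2 are named besides, since they passed in the series matrix. The alternatives are given at the end. One item of the cells' description is not reported here.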

Additional observations from a re-analysis of the deposited data

How the results depend on the processing

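Of 16 alternatives, 14 kept the call of KRT80, 13 that of VIM and 9 that of KRT19, and KRT8 passed in none (adjusted p = 0.206 to 0.902). KRT7 passed in 2 of 15, KRT18 in 1 of 15 and KRT20 in 3 of 15. VIM reversed in the series matrix (0.10) and in the matrix with columns centred on their medians (0.12), an alternative chosen after the data were seen. The cause was not tested. All genes called were 3463, and 974 and 819 in those 2 matrix settings. Leaving out 1 array in turn gave 2068 (without TIC10 replicate 1) to 5126 (without DMSO replicate 3), and 2150 without TIC10 replicate 3. Called genes were higher in 43.7% of cases, in 13.6% with arrays scaled to one median, and in 54.9% and 63.4% in the 2 matrix settings. Members called were 3, and 0 in both matrix settings, 5 with an intensity trend and robust eBayes, and 1 (without TIC10 replicate 1) to 5 (without DMSO replicate 3) when 1 array was left out. Of 10 tested member probes 5 passed, where 18% of all tested probes did. The 5 include the second KRT80 probe, which met the filter mainly through the group where it is high. The count was 2 when arrays were scaled to one median and 3 of 4 under the stricter filter. With 1 array left out it was 2 (without TIC10 replicate 1 or 3) to 8 (without DMSO replicate 3), with 3 without DMSO replicate 1 or 2. The shares of all probes in those alternatives are not given here. In the series matrix the count of 0 members (3 at an unadjusted p under 0.05, limma, as had 2829 of all 14534 genes) was the same in all its alternatives. Replicate numbers did not pair the arrays: deviations of same-numbered arrays correlated at -0.15, 0.16 and -0.01 across genes. With replicate number as a block 2876 genes, 3 members and 4 member probes passed, and 0 members in the series matrix. The tested probes of KRT7 and KRT20 lay at percentiles 17.7 to 68.5 and 20.3 to 60.5 of their arrays, and the probe of KRT23 at 16.8 to 69.7. Such dim signals limit how well these genes were measured.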
